A study of Mus musculus with 28 samples.

Results

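A set of 9 genes for proteins that carry histones to and from replicating DNA was followed in 28 RNA-seq libraries of transformed mouse fibroblasts. The genes are Asf1a, Asf1b, Chaf1a, Chaf1b, Nasp, Hat1, Hira, Ssrp1 and Supt16, taken by symbol from a count table of 24079 rows, and all 9 passed the filter on low counts that left 15099 genes. The set was drawn up because Asf1b was known to be lower after cyclin D1 siRNA than after the control siRNA SCR. Every value that uses the SCR or cyclin D1 siRNA libraries of the tagged clones is therefore given as a description, without a test.

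At a replication fork the nucleosomes in front are taken apart and new ones are put together behind, from recycled and newly made histones. New H3-H4 pairs are held by NASP, acetylated on H4 by the HAT1 enzyme and handed to ASF1, which exists as the paralogs ASF1A and ASF1B. ASF1 passes them to CAF-1 (CHAF1A, CHAF1B and RBBP4) for deposition behind the fork or to HIRA for deposition of the variant H3.3 away from it, while the FACT complex of SSRP1 and SUPT16 handles H2A-H2B dimers and loosens nucleosomes. ASF1B and the CAF-1 subunits are known as markers of dividing cells, and ASF1A is known to be less tied to division.

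The cells were embryonic fibroblasts of strain C57BL/6x129Sv transformed with RAS and DNP53, and every library carries that background. Clones 12 and 14 express tagged cyclin D1 (Ctag), clones 18 and 25 express the untagged protein, and each is 1 clone, so clone and tag cannot be told apart within a clone. From clones 12 and 14 there is 1 library each for 8 conditions: no treatment, overnight leptomycin B at 20 ng/mL (an inhibitor of nuclear export), the control siRNA SCR, siRNAs against the tags FLAG and HA, and siRNAs Qiagen, Nature and Life against cyclin D1. Clones 18 and 25 have SCR, HA and FLAG siRNA libraries, 1 of each, and clone 18 with mCherry/PURO or FLAG-mCherry-HA/PURO gave 2 libraries with HA siRNA and 1 with FLAG siRNA per construct. The untreated and leptomycin B libraries of clone 12 carry a calendar date in their labels that the siRNA libraries do not, so the day of the work and siRNA transfection cannot be told apart in comparisons with untreated cells. Nothing in the labels says that libraries came from separate cultures, and what the n of 3 or 4 in the titles counts was not given in the sources used here. The p-values therefore rest on the scatter of single libraries around clone and treatment levels, which may be technical. In bulk RNA, fewer cycling cells and less RNA per cell cannot be told apart.

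Total counts ran from 26558256 to 81512769 per library. The targeted gene Ccnd1 was left at 4.73% of its SCR level by Nature siRNA, 5.24% by Life, 12.95% by FLAG, 18.3% by HA and 27.0% by Qiagen in the tagged clones, and at 84.55% by FLAG and 96.5% by HA siRNA in the untagged clones. Of 7 fibroblast markers, Vim (2770 to 8410 CPM, counts scaled to library size), S100a4 (186 to 4050 CPM) and Fn1 (191 to 2880 CPM) were high in every library. The other 4 were near 0 in some libraries: Col1a1 ran from 0.292 to 710 CPM, Col1a2 from 0.201 to 2510 CPM, Pdgfrb from 1.02 to 72.9 CPM and Thy1 from 0 (6 libraries) to 218 CPM. Among epithelial markers the keratin Krt18 reached 1920 CPM, Cdh1 40 CPM and Krt8 10.9 CPM, and Epcam at most 0.867 CPM. The immune markers Ptprc and Lyz2 (at most 0.459 and 0.0627 CPM) and the endothelial markers Pecam1 and Cdh5 (at most 0.737 and 1.15 CPM) were at or near 0, and the neural marker Sox10 was at 0 in 28 of 28 libraries. Cd68 (immune, 1.13 to 5.3 CPM) and Tubb3 (neural, 2.49 to 21.3 CPM) were low but present in every library. The part of other cell types in the results was not tested. The SCR library of clone 12, the deepest, had 324 genes unexpectedly at 0, none of them among the 9 chaperones.

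The upstream sequences of the paralogs Asf1b and Asf1a, which differ in the motifs of cell-cycle promoters, are shown as a description. Both are the 250 bases before the RefSeq start on build GRCm38.p6, plus strand, with matches in capitals: CCAAT boxes (CCAAT, read as ATTGG on the other strand) and the cell-cycle homology region (CHR, TTTGAA).
Asf1b, chr8:83955444-83955693: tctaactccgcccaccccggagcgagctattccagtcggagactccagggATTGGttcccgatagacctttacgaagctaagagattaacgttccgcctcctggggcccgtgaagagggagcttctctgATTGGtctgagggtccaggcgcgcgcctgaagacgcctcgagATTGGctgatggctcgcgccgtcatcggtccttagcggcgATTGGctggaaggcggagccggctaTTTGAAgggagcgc
Asf1a, chr10:53596711-53596960: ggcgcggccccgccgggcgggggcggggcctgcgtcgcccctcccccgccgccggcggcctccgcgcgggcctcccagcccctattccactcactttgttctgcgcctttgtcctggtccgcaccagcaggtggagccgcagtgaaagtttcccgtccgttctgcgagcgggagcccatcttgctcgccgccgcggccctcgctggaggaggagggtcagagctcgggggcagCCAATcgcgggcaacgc
The Asf1b window held 4 CCAAT boxes, all on the minus strand, and 1 CHR that ended 9 bases before the start, and the Asf1a window held 1 CCAAT box and no CHR. No match overlapped another in either window. The GENCODE models begin inside the windows, at base 83955507 for Asf1b and 53596757 for Asf1a. Most Asf1b matches, the CHR among them, and the Asf1a match thus lie before the RefSeq start but after the GENCODE start. Among 32851 windows of the same length in the RefSeq table, 33.8% held a CCAAT box, 0.84% held 4 or more, and 16% held a CHR (both strands). An E2F site (TTTCCCGC, TTTGGCGC, TTTCGCGC or TTTGCCGC, both strands) was in 1.86% of windows and in neither paralog's. All 9 genes had a window, 10 in all because Ssrp1 has 2 starts. A CCAAT box was in 5 of the 10, a CHR in 4 (Asf1b, Nasp and both Ssrp1 windows) and an E2F site in 1 (Ssrp1). These are matches of letters, not measured binding sites, and their part in the siRNA values was not tested.

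Per kilobase of principal transcript, Ssrp1 was the most abundant of the 9 at a median of 214.7 CPM per kb over 28 libraries and Asf1a the least at 13.9. Between them stood Hat1 (120.4), Nasp (101.2), Supt16 (49.6), Asf1b (31.4), Chaf1b (20.4), Chaf1a (18.8) and Hira (15.8). On this scale Ssrp1 was above Hat1, Nasp above Supt16 and Chaf1a above Hira in 28 of 28 libraries. All exons of Nasp cover 7518 bases beside 2118 in its principal transcript, and those of Chaf1b 4681 beside 1922. The places of Nasp and Chaf1b in the order therefore depend on the length chosen. Hat1 was above Nasp in 21 libraries, Chaf1b above Chaf1a in 21 and Hira above Asf1a in 17, so these neighbours were not separated in every library. Hira varied least, from 48.5 to 74.5 CPM (1.54-fold), and Asf1b most, from 12.1 to 90.6 CPM (7.49-fold). The FACT subunits were not at one level, with Ssrp1 above Supt16.

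Asf1b, the proliferation-linked ASF1 paralog (chromosome 8, 83955507 to 83970197, plus strand, GRCm38), separated the libraries of Nature and Life siRNA from all others. Nature siRNA left 16.7 CPM in clone 12 and 22.9 CPM in clone 14, and Life siRNA 12.1 and 18.7 CPM. With SCR the same clones had 65.8 and 83.9 CPM. The 4 Nature and Life libraries lay at 12.1 to 22.9 CPM and the other 24 libraries at 41.4 to 90.6 CPM, with no overlap. Nature and Life overlapped each other. The Nature and Life libraries are part of the comparison that chose the set, and the share of all genes with such a gap was not counted.

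The other 3 targeting siRNAs left Asf1b near the control range. Qiagen gave 41.4 CPM in clone 12 and 77.55 CPM in clone 14, FLAG 48.4 and 75.95 CPM, and HA 48.05 and 90.6 CPM. Untreated cells had 59.7 and 73.9 CPM and leptomycin B cells 55.3 and 63.7 CPM. Clone 14 was above clone 12 in 8 of 8 conditions, and within clone 12 all 3 siRNAs lay below both SCR and untreated cells, whereas within clone 14 all 3 lay above untreated cells and HA also above SCR. In the untagged clones 25 and 18, SCR gave 52.5 and 58.45 CPM, FLAG 43.55 and 52.5 CPM and HA 44.3 and 54.4 CPM. The 6 mCherry libraries stayed between 52.4 and 59.95 CPM.

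**Figure D1:**
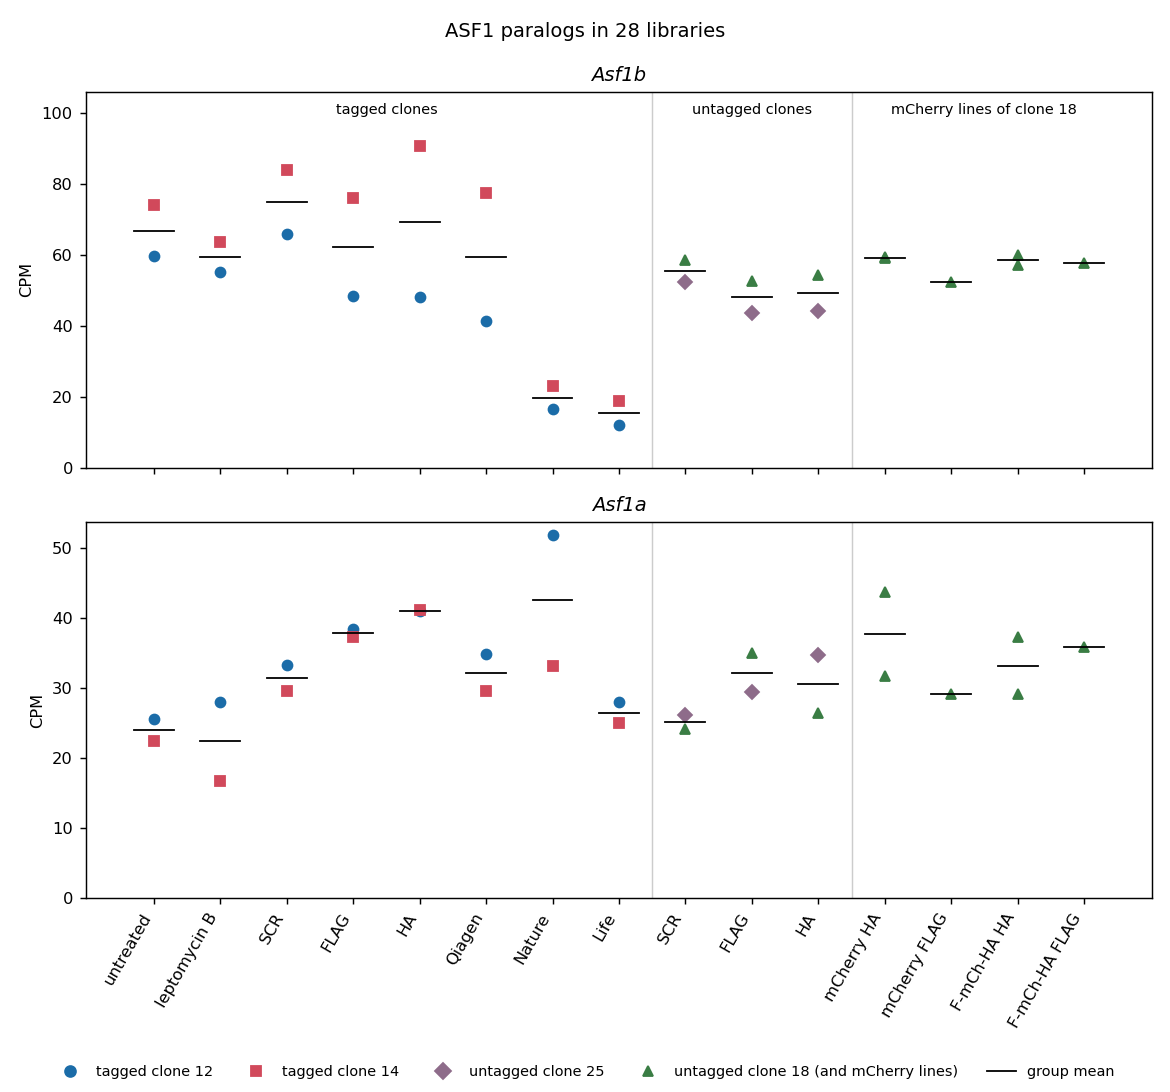
Asf1b (top) and Asf1a (bottom) in 28 libraries, in CPM on a linear axis from 0; each point is 1 library, coloured by clone, and bars are group means (F-mCh-HA is FLAG-mCherry-HA; the last 4 groups name the construct and then the siRNA). Asf1b in the Nature and Life libraries sits at 12.1 to 22.9 CPM, below the other 24 libraries, and Asf1a spans 16.8 to 52.0 CPM with no such gap.

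As fitted log2 fold changes against SCR with the clone as a block, Asf1b was at -1.54 ± 0.12 (SE, 6 against 2 libraries) for the 3 cyclin D1 siRNAs together, the value that chose the set. Split by siRNA, the value was -1.93 ± 0.16 for Nature and -2.31 ± 0.16 for Life but -0.39 ± 0.15 for Qiagen. The siRNAs against the tags gave -0.30 ± 0.15 (FLAG) and -0.16 ± 0.15 (HA), 2 libraries a group throughout. The pooled value is thus a mean over unlike siRNAs and lies between those of Qiagen and of the other cyclin D1 siRNAs. The clones gave similar values for Nature (-1.98 in clone 12 and -1.87 in clone 14) and Life (-2.44 and -2.16), and less similar ones for Qiagen (-0.67 and -0.11). Without the SCR library of clone 12 they were -1.81 for Nature, -2.19 for Life and -0.27 for Qiagen, and without the libraries in which the ribosomal RNA gene Rn45s took over 2% of counts (1 each of Nature, Life, HA and mCherry) they were -1.935, -2.385 and -0.39. Against untreated cells the values were -1.77 ± 0.16 for Nature, -2.15 ± 0.16 for Life and -0.22 ± 0.15 for Qiagen. Asf1b ranked 305 of 15099 genes from the lowest with Nature, 187 with Life and 2371 with Qiagen.

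Asf1a, the paralog that is less tied to division (chromosome 10, 53596757 to 53609225, plus strand, GRCm38), did not follow. Nature siRNA gave 52.0 CPM in clone 12, the highest of all 28 libraries, and 33.1 CPM in clone 14. Life gave 28.0 and 25.0 CPM, Qiagen 34.9 and 29.6 CPM, FLAG 38.4 and 37.3 CPM and HA 41.0 and 41.1 CPM, beside 33.4 and 29.6 CPM with SCR. The Nature, FLAG and HA groups were on the side above SCR and Life below it in both clones, and Qiagen lay at SCR. Against SCR the fitted log2 fold changes were 0.42 ± 0.19 for Nature, -0.25 ± 0.19 for Life, 0.03 ± 0.19 for Qiagen, 0.27 ± 0.19 for FLAG and 0.39 ± 0.19 for HA. The Nature value was 0.19 without its clone 12 library, and with untreated cells as the control all 5 values were positive, from 0.14 (Life) to 0.80 (Nature). Asf1a shares 1748 exon bases with Mcm9 on the opposite strand, and with the strand setting of the counting not given in the sources used here, reads of the 2 genes may be mixed.

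The difference between the paralogs' log2 fold changes (Asf1b minus Asf1a) was -2.34 for Nature and -2.06 for Life. It was -0.57 for FLAG, -0.56 for HA and -0.42 for Qiagen, so all 5 siRNAs lay on the same side of 0 and 2 of them far from the rest. By clone, the Nature difference was -2.615 in clone 12 and -2.03 in clone 14 and the Life difference -2.18 and -1.92. The smaller differences varied more between clones in proportion, at -0.73 and -0.11 for Qiagen, -0.75 and -0.36 for HA and -0.65 and -0.48 for FLAG. In untagged clones, which carry no tagged cyclin D1, the differences were also negative, at -0.57 for FLAG (-0.69 in clone 18 and -0.435 in clone 25) and -0.45 for HA (-0.24 and -0.65). The 5 differences share the SCR libraries.

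On the scale of CPM per kb, Asf1b exceeded Asf1a in all 24 libraries other than Nature and Life, by 1.44-fold to 4.67-fold. The ratio was 0.395 in the Nature library of clone 12, 0.852 in that of clone 14, 0.533 in the Life library of clone 12 and 0.921 in that of clone 14. These 4 were the only libraries with a ratio below 1. With the length of all exons of a gene in place of the principal transcript, the Nature and Life libraries of clone 12 kept a ratio below 1 and those of clone 14 were at 1.08 and 1.16. The highest ratios, 4.67 and 4.05, were in the leptomycin B and untreated libraries of clone 14.

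The order of the siRNAs by Asf1b was not their order by Ccnd1, although Nature and Life left the least of both genes. The changes of order rest on small gaps. Asf1b was at -0.39 ± 0.15 with Qiagen and -0.30 ± 0.15 with FLAG, and in clone 14 Qiagen left more Asf1b (77.55 CPM) than FLAG (75.95 CPM). FLAG siRNA left 12.95% of Ccnd1 with 81.4% of Asf1b, and Life 5.24% of Ccnd1 with 20.2% of Asf1b. Nature left the least Ccnd1, 4.73%, and 26.3% of Asf1b, which is more than with Life. The other D-type cyclins moved apart between the same siRNAs: Ccnd2 was at 21.6% of SCR with Nature and 139.8% with Life, and Ccnd3 at 122.9% with Nature and 26.9% with Life. Qiagen left 60.8% of Ccnd3 and 111.3% of Ccnd2. The part of these cyclins in the Asf1b values was not tested.

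**Figure D2:**
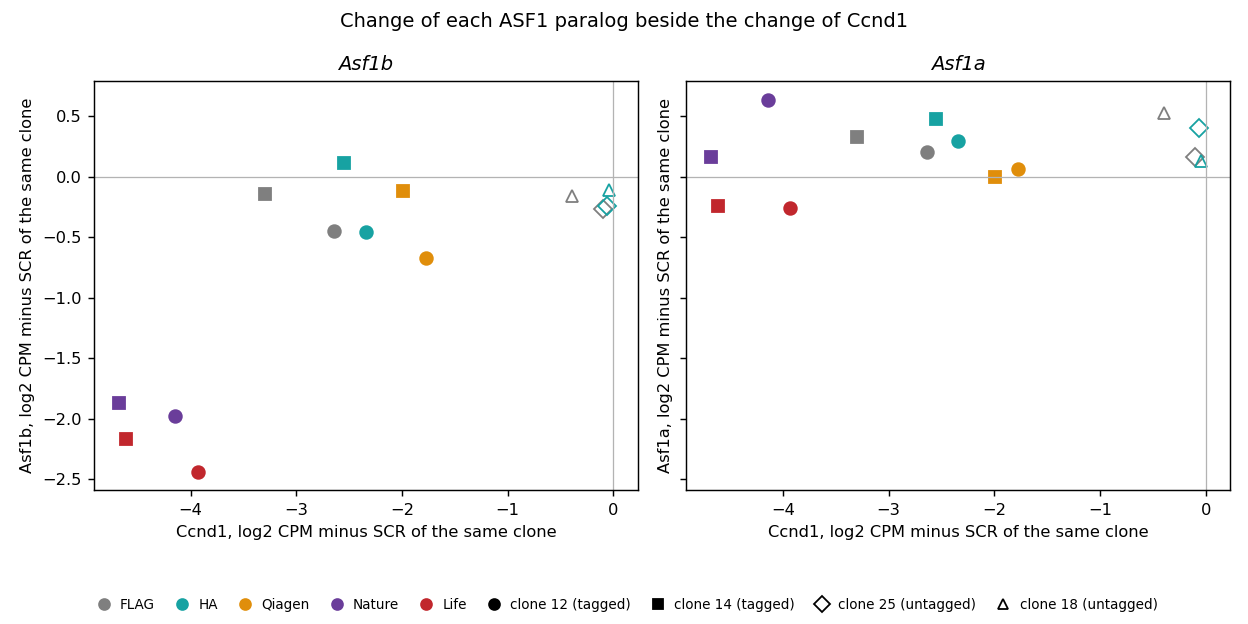
Change of Asf1b (left) and Asf1a (right) against the change of Ccnd1, both as log2 CPM minus the SCR library of the same clone; each point is 1 library, coloured by siRNA and shaped by clone, with open symbols for untagged clones. For Asf1b the 4 Nature and Life points lie at -1.87 to -2.44 and the other 10 between -0.67 and 0.11, and for Asf1a the 14 points lie between -0.26 and 0.64.

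Genes with a pattern like that of Asf1b were ranked by Pearson correlation of log2 CPM, centred on the clone or matched pair, over the 28 libraries, among 11771 genes averaging 1 CPM or more. The leading 6 were Cops8 (r = 0.948), a subunit of the COP9 signalosome, Naa40 (0.902), the N-terminal acetyltransferase of histones H4 and H2A, Nup54 (0.900) of the nuclear pore, Wdr5 (0.898), a core subunit of histone H3 lysine methyltransferases, B630005N14Rik (0.896) and Odf2 (0.893), a centriole protein. Against SCR, Cops8 was at -1.10 with Nature, -1.85 with Life and -0.24 with Qiagen, and Naa40 at -1.43, -1.42 and -0.52. All 6 were below SCR with Nature and Life. The points share libraries, and 4 of the 28 hold most of the spread of Asf1b, so these values describe a pattern. Ccnd1 itself had r = 0.780 (rank 31). Of the other 8 chaperones only Hat1 was near, at r = 0.704 (rank 92), followed by Hira (0.338) and Nasp (0.231), and Asf1a was at -0.051.

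Hat1, the acetyltransferase of new H4, had the pattern closest to that of Asf1b among the other chaperones. Life siRNA left 119.4 CPM in clone 12 and 141.5 CPM in clone 14, beside 237.7 and 273.9 CPM with SCR. Nature gave 174.7 and 186.0 CPM, Qiagen 185.2 and 171.6 CPM, FLAG 164.7 and 193.1 CPM and HA 179.1 and 243.5 CPM. All 10 siRNA libraries lay below the SCR library of their clone, and the 6 cyclin D1 siRNA libraries below both SCR libraries. Hira had both traits as well, and the share of all genes with them was not counted. The log2 fold changes against SCR were -0.97 ± 0.13 for Life, -0.50 ± 0.13 for Nature, -0.51 ± 0.13 for Qiagen, -0.52 ± 0.13 for FLAG and -0.28 ± 0.13 for HA. Untreated cells, with 191.3 and 202.9 CPM, were below SCR as well. Against untreated cells Hat1 was at -0.60 ± 0.13 with Life, and between -0.14 and 0.09 with the other 4 siRNAs, so the distance from SCR was met again only with Life. Nasp, which keeps the soluble pool of H3-H4, ranged from -0.31 (Life) to -0.07 (Qiagen) against SCR, and some of its reads may belong to the pseudogene Nasp-ps1.

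Chaf1a and Chaf1b, the large subunits of CAF-1, did not share one course. Chaf1a had 158.0 CPM in clone 12 and 110.5 CPM in clone 14 with SCR. The clone 12 libraries of all 5 targeting siRNAs were lower, at 97.1 to 107.3 CPM, and those of clone 14 lay on both sides, at 89.0 to 131.0 CPM. The fitted value was -0.53 ± 0.15 for FLAG, -0.37 ± 0.15 for HA, -0.35 ± 0.15 for Qiagen, -0.28 ± 0.15 for Life and -0.17 ± 0.15 for Nature. Without the SCR library of clone 12, the highest of all 28, these values were -0.23, -0.07, -0.06, 0.015 and 0.125. Chaf1b, at 36.1 to 54.5 CPM in the tagged clones, was between -0.11 (FLAG) and 0.29 (HA) against SCR. Without the SCR library of clone 12 all 5 Chaf1b values were positive, from 0.08 (FLAG) to 0.48 (HA), and without that of clone 14 they ran from -0.28 (FLAG) to 0.12 (HA). Chaf1a shares 4648 exon bases with Ubxn6 on the opposite strand. Hira, which places H3.3 outside replication, was between -0.21 and -0.11 for the 5 siRNAs. It was lower than SCR in 10 of 10 libraries, with differences of -0.36 to -0.05 in log2 CPM. Its 6 cyclin D1 siRNA libraries lay below both SCR libraries, and the share of all genes with these traits was not counted. Hira shares 2778 exon bases with Gm28539 on the same strand, so reads may be split between them.

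Ssrp1 and Supt16, the subunits of FACT, differed by siRNA. Qiagen siRNA left 332.0 CPM of Ssrp1 in clone 12 and 368.8 CPM in clone 14, and the other 26 libraries lay at 508.9 to 797.6 CPM. The log2 fold change of Ssrp1 with Qiagen was -0.97 ± 0.12 against SCR and -0.88 ± 0.10 against the mean of the other 4 targeting siRNAs. With Nature it was 0.00 ± 0.12, with Life -0.21 ± 0.12, with FLAG -0.15 ± 0.12 and with HA 0.01 ± 0.12, so the Qiagen libraries stood alone. The share of all genes that set the Qiagen libraries apart in this way was not counted. Supt16 was at -0.08 ± 0.14 with Qiagen and lowest with FLAG, at -0.52 ± 0.14, where both clones had 198.0 and 195.9 CPM beside 299.9 and 263.2 CPM with SCR. Supt16 shares 1057 exon bases with Rpgrip1 on the opposite strand.

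**Figure D3:**
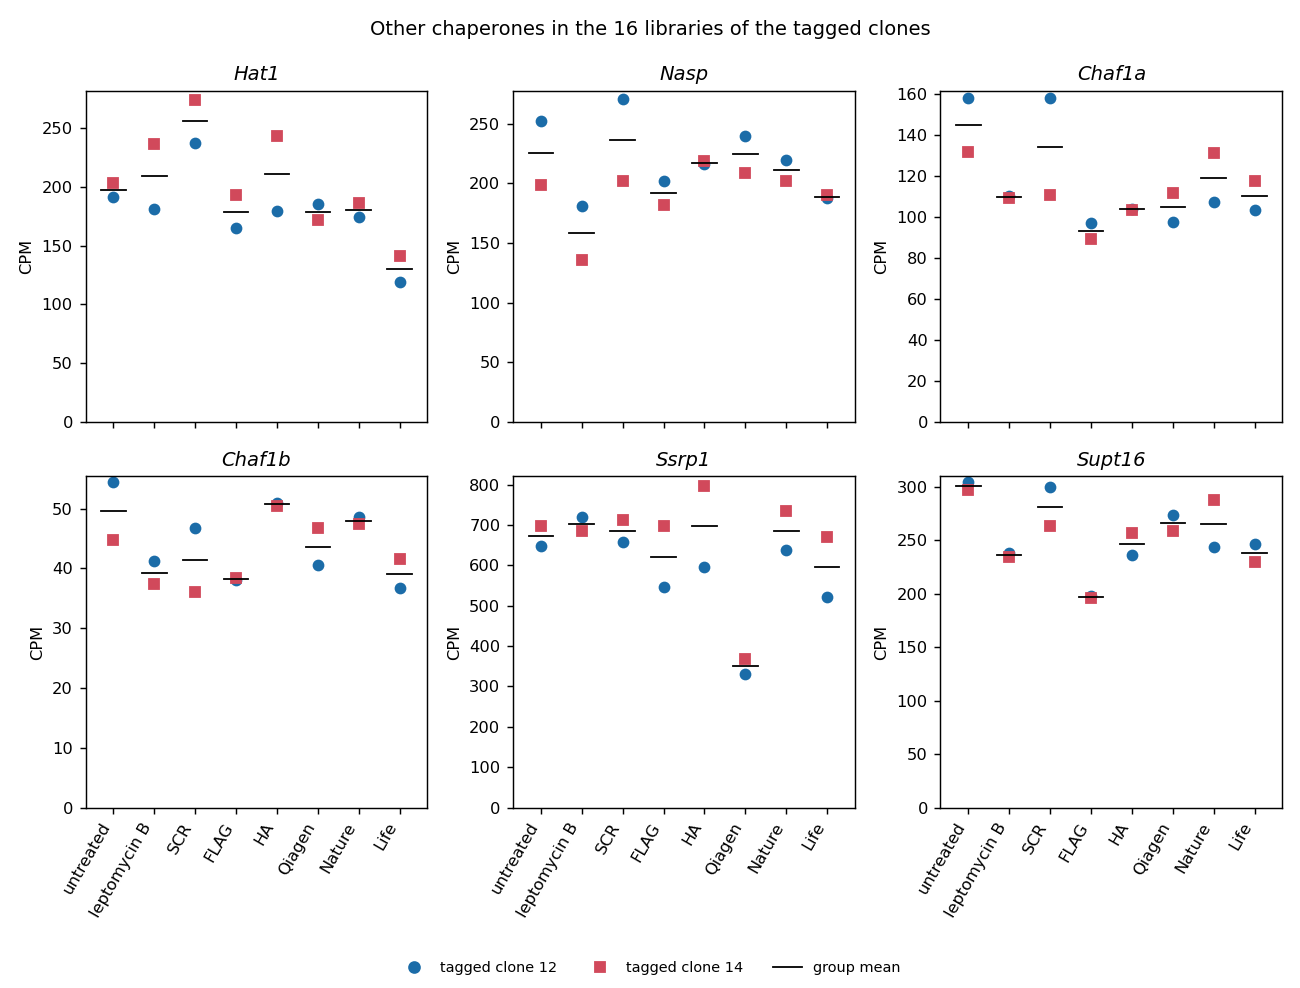
Hat1, Nasp, Chaf1a, Chaf1b, Ssrp1 and Supt16 in the 16 libraries of tagged clones 12 (circles) and 14 (squares), in CPM on linear axes from 0, with bars at group means. Ssrp1 is at 332.0 and 368.8 CPM with Qiagen siRNA and Hat1 at 119.4 and 141.5 CPM with Life siRNA, the lowest of their panels.

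Counted over the set, the number of chaperones at or below a log2 fold change of -0.5 against SCR was 2 of 9 with Qiagen (Ssrp1 and Hat1), where 12.2% of all 15099 genes were there, 2 of 9 with Nature (Asf1b and Hat1; 15.6% of genes), and 2 of 9 with Life (Asf1b and Hat1; 11% of genes). FLAG had 3 of 9 (Chaf1a, Hat1 and Supt16; 9.55%) and HA 0 of 9 (15.4%). The 3 FLAG values lay just past that line (-0.53, -0.52 and -0.515), and without the SCR library of clone 12 only Hat1 remained beyond it, with Supt16 at -0.41 and Chaf1a at -0.23. With Nature, Hat1 was at the line (-0.50) and left it without the SCR library of clone 14 or the Nature library of clone 14, leaving 1 of 9, while without the SCR library of clone 14 Chaf1a crossed it with HA, Life and Qiagen, for 1, 3 and 3 of 9. No member reached 0.5 with any of the 5. The median over the 9 was -0.14 with Qiagen, -0.16 with Nature, -0.25 with Life, -0.29 with FLAG and -0.11 with HA, beside medians of 0.03 to 0.05 over all genes. The siRNA comparisons share the SCR libraries.

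Comparisons that share no library with the SCR and cyclin D1 siRNA libraries of the tagged clones could be tested, with edgeR's quasi-likelihood test and Benjamini-Hochberg adjustment over the 15099 genes at a threshold of 0.05. In untagged clones, where neither tag is present, FLAG and HA siRNA together against SCR called 0 of the 9 (2.68% of all genes called; 3 of 9 at an unadjusted p under 0.05, beside 12% of genes). The members ranged from -0.37 (Supt16, adjusted p = 0.149) to 0.32 (Asf1a, adjusted p = 0.482), and Asf1b was at -0.19 ± 0.13 (adjusted p = 0.657). FLAG siRNA alone called Supt16, which fell by 0.64 ± 0.14 on the log2 scale (adjusted p = 0.022, lower in 2 of 2 clones), 1 of 9 against 2.02% of all genes. Its levels were 104.4 CPM in clone 18 and 201.1 CPM in clone 25 with FLAG siRNA, and 183.0 and 282.5 CPM with SCR, so each clone was lower although the groups overlapped. This call was lost when either SCR library was left out (adjusted p = 0.278 without clone 25 and 0.274 without clone 18), and also without the clone 18 FLAG library (-0.38, adjusted p = 1). With only the libraries of the comparison in the fit, Asf1a (0.36, adjusted p = 0.0143), Chaf1a (-0.33, adjusted p = 0.00562) and Hat1 (-0.35, adjusted p = 0.00243) were called as well. HA siRNA alone called 0 of 9 (2.16% of genes; 0 of 9 at an unadjusted p under 0.05, beside 10.2% of genes).

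HA against FLAG siRNA called 0 of 9 in tagged clones (0.57% of genes) and 0 of 9 in untagged clones (0.868%). At an unadjusted p under 0.05 it called 2 of 9 in tagged clones (9.57% of genes), Chaf1b at 0.41 ± 0.14 (adjusted p = 0.257) and Supt16 at 0.32 ± 0.14 (adjusted p = 0.471), and 1 of 9 in untagged clones (7.38%), Supt16 at 0.54 ± 0.14 (adjusted p = 0.102). DESeq2 also called Supt16 in untagged clones (adjusted p = 0.0321), the only member it called in a comparison where edgeR called 0 of 9. All 9 members had a positive value in tagged clones, where 51.2% of all genes were negative, but without the HA library of clone 14 Asf1b was at -0.11 and Asf1a at -0.07. In the same comparison of tagged clones, 4 of the 10 H2A-H2B and general histone chaperones were called higher (0.397% of all genes), among them Set (1.13 ± 0.14, adjusted p = 0.00036), Npm1 (0.90 ± 0.13, adjusted p = 0.00173) and Nap1l1 (0.83 ± 0.12, adjusted p = 0.00126), and the H3.3 chaperone Daxx was at 1.09 ± 0.15 (adjusted p = 0.00122). In untagged clones 6 of those 10 and 1 of 9 H3.3 and CENP-A genes were called higher (0.576% of all genes). These lists were chosen with earlier results of these data known, so the counts are a description.

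Against untreated cells, the siRNAs directed at the tags called 3 of the 9 in tagged clones, where 32.6% of all genes were called. Asf1a rose by 0.72 ± 0.17 (adjusted p = 0.00422), from 25.6 and 22.5 CPM to 37.3 to 41.1 CPM, higher in 4 of 4 libraries. Chaf1a fell by 0.56 ± 0.13 (adjusted p = 0.00455), from 157.8 and 131.6 CPM to 89.0 to 104.1 CPM, and Supt16 fell by 0.45 ± 0.12 (adjusted p = 0.0102), from 304.4 and 296.7 CPM to 195.9 to 256.4 CPM, each lower in 4 of 4 libraries. For these 3 genes the groups did not overlap, and neither did those of Hira, which was not called. The share of all genes without overlap was not counted. Without the untreated library of clone 12 the calls of Chaf1a (-0.42, adjusted p = 0.0849) and Supt16 (-0.43, adjusted p = 0.0667) ended, and without that of clone 14 those of Asf1a (0.77, adjusted p = 0.0603) and Supt16 (-0.46, adjusted p = 0.0943). The 2 lower calls stand beside 17.8% of genes and the 1 higher call beside 14.8%. Asf1b was at -0.07 ± 0.13 (adjusted p = 0.740). With SCR siRNA, Asf1a was at 0.39 ± 0.19 against the same untreated libraries.

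Leptomycin B called 1 of the 9, Nasp, which fell by 0.51 ± 0.13 (adjusted p = 0.0159, lower in 2 of 2 clones), beside 9.99% of genes called and 5.7% called lower. Nasp was at 181.3 CPM in clone 12 and 135.8 CPM in clone 14 with leptomycin B and at 252.1 and 198.6 CPM untreated, with no overlap. The call ended without the untreated library of clone 12 (-0.43, adjusted p = 0.151) or the leptomycin B library of clone 14 (-0.39, adjusted p = 0.136). Chaf1a (-0.40 ± 0.15, adjusted p = 0.109), Supt16 (-0.35 ± 0.14, adjusted p = 0.131) and Chaf1b (-0.34 ± 0.14, adjusted p = 0.125) lay on the same side without passing the threshold. Their groups did not overlap either, and the share of all genes without overlap was not counted. Asf1b was at -0.16 ± 0.15 (adjusted p = 0.574) and Asf1a at -0.13 ± 0.19 (adjusted p = 0.735). The comparison shares its untreated libraries with the preceding one. FLAG-mCherry-HA against mCherry called 0 of 9 and 0 genes in all (9.21% of genes and 0 of 9 members at an unadjusted p under 0.05; DESeq2 called 15 genes and 0 of 9 members), with members between -0.10 and 0.17.

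**Figure D4:**
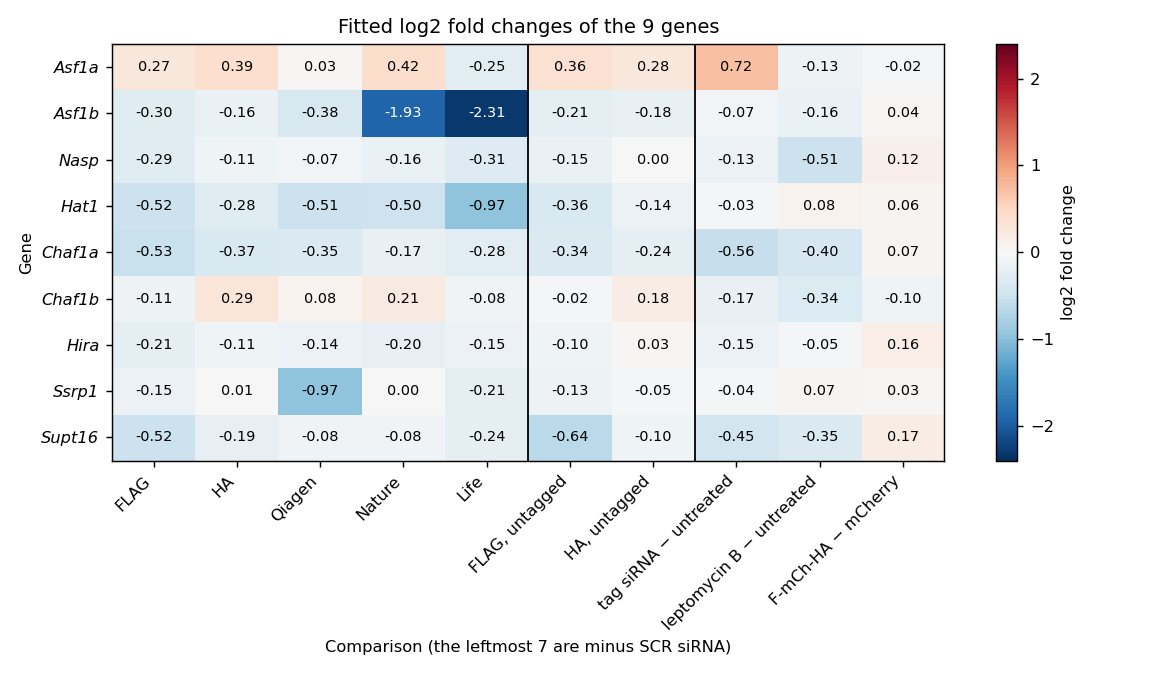
Fitted log2 fold changes of the 9 genes (rows) in 10 comparisons (columns), red for higher and blue for lower; the leftmost 5 columns are siRNA minus SCR in tagged clones, the next 2 the same in untagged clones, and F-mCh-HA is FLAG-mCherry-HA. Asf1b with Nature (-1.93) and Life (-2.31) holds the lowest values, followed by Hat1 with Life and Ssrp1 with Qiagen, both at -0.97.

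Other genes of the pathway came from 5 lists chosen by function, with earlier results of these data known. Their counts and p-values therefore describe these data and are no independent test of the lists. The list counts against untreated cells stand beside 17.8% of all genes called lower and 14.8% called higher, 32.6% in all, and the 8 of 20 replication genes called are near that share. Against untreated cells, tag siRNA called 4 of the 10 CAF-1 and ASF1 partners lower and 1 higher, with Cdan1, which binds ASF1 in the cytoplasm, at -0.60 ± 0.10 (adjusted p = 0.000886) and Tonsl, a reader of new H4, at -0.67 ± 0.14 (adjusted p = 0.00275). It called 6 of 9 H3.3 and CENP-A deposition genes lower, with Ubn2, a subunit of the HIRA complex, at -1.14 ± 0.18 (adjusted p = 0.000418) and Daxx at -0.67 ± 0.13 (adjusted p = 0.00151). Of 10 H2A-H2B and general chaperones 6 were called lower and 1 higher, of 9 histone supply genes 2 lower and 3 higher, and of 20 replication genes 7 lower and 1 higher. The list medians were -0.13, -0.67, -0.41, 0.25 and -0.18, beside 0.01 over all genes. For the H2A-H2B and general chaperones the median against untreated cells was -0.82 with FLAG siRNA and -0.03 with HA. In untagged clones, tag siRNA against SCR called 6 of the 10 H2A-H2B and general chaperones lower (1.47% of all genes), among them Nap1l1 (-0.55 ± 0.10, adjusted p = 0.00388), Anp32b (-0.65 ± 0.13, adjusted p = 0.0074) and Anp32e (-0.71 ± 0.15, adjusted p = 0.011). Taken alone, FLAG siRNA called 6 of the 10 lower (median -0.97) and HA siRNA 0 (median -0.08), beside 1.22% of all genes with each. The pooled count thus reflects FLAG siRNA. The ASF1 kinase Tlk2 rose by 0.63 ± 0.11 (adjusted p = 0.00335), the only call among the 10 partners (1.21% of all genes called higher).

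Leptomycin B called 4 of the 9 histone supply genes, all higher (4.29% of all genes called higher), with the H3.3 genes H3f3b at 0.88 ± 0.14 (adjusted p = 0.000871) and H3f3a at 0.57 ± 0.16 (adjusted p = 0.0286) and the histone mRNA binding protein Slbp at 0.53 ± 0.13 (adjusted p = 0.0167). The CENP-A loading factor Mis18a rose by 0.71 ± 0.15 (adjusted p = 0.00433). Ccne1 fell by 0.82 ± 0.15 (adjusted p = 0.00177) and Ccne2 by 0.50 ± 0.15 (adjusted p = 0.0396), the 2 calls among 20 replication genes, a share close to the 9.99% of all genes called.

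Most replication genes were below SCR with all 5 siRNAs in the tagged clones, in another order of siRNAs than for Asf1b. Against SCR, 20 of the 20 replication genes were negative with Life (median -0.47), 16 with Nature (median -0.23) and 20 with Qiagen (median -0.43). With FLAG siRNA 19 were negative (median -0.40, 45.6% of all genes negative) and with HA 15 (median -0.20, 47.2%). With tag siRNA in untagged clones 17 were negative (median -0.16, 50.9%). SCR libraries themselves had 14 of the 20 above untreated cells (median 0.17), where 51.8% of all genes were below. Against untreated cells 19 were negative with Life (median -0.39, 47.8% of all genes negative), 19 with Qiagen (median -0.41, 49.1%) and 13 with Nature (median -0.145, 48.9%). FLAG had 16 negative (median -0.23, 48.9%) and HA 11 (median -0.09, 49%), so the HA count was near the share of all genes. Against SCR, of the 9 chaperones 9, 7 and 7 were negative with Life, Nature and Qiagen, and of all genes 44.9%, 46.5% and 46.1%. FLAG siRNA had 8 of the 9 negative and HA 6 in tagged clones, beside 45.6% and 47.2% of genes. With tag siRNA in untagged clones 7 of the 9 were negative (50.9% of genes). The lowest replication gene was Cdc6 with Life, at -1.02 ± 0.15, and Fen1 with Nature, at -1.01 ± 0.18, so no replication gene reached the Asf1b value. With Qiagen, Ccne1 was at -2.43 ± 0.16 and Mcm5 at -1.38 ± 0.13, and 14 of the 20 lay below Asf1b. Among histone supply genes Slbp was at -1.04 ± 0.14 with Life.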

How the data were processed

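RNA of transformed mouse embryonic fibroblasts was taken the morning after siRNA transfection or leptomycin B, per the labels' protocols, and sequenced as single reads from a stranded mRNA kit. Per the submitters' processing notes, HTSeq 0.6.1p1, Bowtie2 2.2.3, TopHat2 2.0.13, CASAVA 1.8.2 and FastQC were used with build mm10, the strand setting and annotation being not given in the sources used here. The authors deposited raw counts per gene, with 24079 rows and 28 libraries, matched to samples by their numbers. Rows lacking a gene ID (22) stayed in, and 17 symbols were repeated, none among the 9 genes. The lowest chi-square per degree of freedom over 378 pairs of libraries was 13.8, so no pair was within sampling noise.

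The fit was made with edgeR 4.0.16 in R 4.3.3 after a filter on low counts (filterByExpr on the groups) and TMM scaling: a robust quasi-likelihood model of 28 libraries in 15 groups (17 coefficients, 11 residual degrees of freedom, biological coefficient of variation 14.6%). All libraries entered 1 fit because most groups hold 2. The block was the clone, which both arms of each comparison share, or in the mCherry lines the pair matched by siRNA and REP number. Libraries of a clone deviated together (lowest correlation 0.834 over 56 tagged pairs, 0.862 over 6 untagged pairs, 0.251 over 3 mCherry pairs). Tagged and untagged groups hold 1 library per clone, so deviations from the group mean mirror each other between clones. Each tagged or untagged correlation is thus counted once in each clone. A standard error is the absolute log2 fold change over the square root of F. CPM use TMM, and log2 CPM a prior count of 2. Levels per kb use the longest APPRIS principal transcript of GENCODE vM21 (GRCm38). All exons were an alternative for the ratio of Asf1b to Asf1a only, chosen after seeing the data. Promoter windows come from RefSeq on GRCm38.p6.

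The 9 genes and the lists were chosen with earlier results of these data known. Text names all 9 genes, Ccnd1, Ccnd2 and Ccnd3, the 6 genes closest to Asf1b, and up to 3 genes of a list in a comparison, by smallest p where tested and by distance from 0 where described. Alternatives were relative log expression size factors, a non-robust fit, no filter and a stricter one, no replicate block, DESeq2 1.42.0, a fit of the compared libraries alone, fits without libraries over 2% Rn45s or without that row, untreated cells as control, and leaving out each library. The fit was also run on counts simulated from its own means and spread, with independent noise. Such counts check the code and cannot show how the fit behaves with an odd library. Counting error is small at these depths, and the number of libraries limits the precision.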

Additional observations from a re-analysis of the deposited data

How the results depend on the processing

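The pooled Asf1b value against SCR (-1.54) lay between -1.57 and -1.38 under the other settings and between -1.65 and -1.42 when 1 library was left out. Asf1b minus Asf1a with untreated cells as control moved by the same amount for all 5 siRNAs, to -0.80 for FLAG, -0.78 for HA, -0.645 for Qiagen, -2.57 for Nature and -2.29 for Life, and with 1 library left out it spanned -2.51 to -2.17 for Nature, -2.23 to -1.88 for Life, -0.74 to -0.39 for FLAG, -0.73 to -0.38 for HA and -0.61 to -0.24 for Qiagen. With no replicate block (clone unpaired), 0 of 9 members were called for tag siRNA against untreated cells (3 with it) and 0 for leptomycin B (1 with it), and the Supt16 call for FLAG siRNA in untagged clones ended (adjusted p = 1). With only the libraries compared, HA against FLAG siRNA in tagged clones called 3 members (Supt16, Chaf1b and Hat1), leptomycin B 4, and FLAG siRNA against SCR in untagged clones also Asf1a, Chaf1a and Hat1. DESeq2 called 1 for HA against FLAG siRNA in untagged clones. With 1 library left out, the members called numbered 1 to 3 for tag siRNA against untreated cells and 0 to 1 for leptomycin B. They numbered 0 to 1 for HA against FLAG siRNA and for tag siRNA against SCR in untagged clones, the 1 being Supt16 (adjusted p = 0.0112 without the HA and 0.0384 without the FLAG library of clone 25, and 0.0289 without the FLAG library of clone 25 and 0.0145 without the HA library of clone 18). Other size factors, a non-robust fit, other filters and removal of Rn45s changed no count of members called by over 1.5 times, and no called member changed sign under any setting run. The cause of these changes was not tested. A comparison of 2 against 2 libraries limits precision more than depth does, and where 1 library is left in an arm it is taken to vary like the others.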
